A study of Mus musculus with 6 samples.

Results

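The 10 genes described here belong to bone morphogenetic protein (BMP) signalling and were followed across the cell types of the postnatal mouse lung and cerebral cortex: the ligands Bmp2, Bmp4, Bmp5 and Bmp6, the receptors Bmpr1a, Bmpr2 and Acvrl1, the co-receptor Eng, and the transcriptional targets Id1 and Id2. They were taken by gene symbol from the 56884 genes in the count tables, and all 10 were found in all 6 libraries.

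The study deleted single growth factor genes in Pdgfrb-expressing cells, which include pericytes, and profiled lung and cerebral cortex by single-cell RNA sequencing on the BD Rhapsody platform. In the lung, a Bdnf lox/lox control library was compared with a Bdnf iPCKO library and an Hgf lox/lox control library with an Hgf iPCKO library, all at postnatal day (P) 21. In the cerebral cortex, a Nodal lox/lox control library was compared with a Nodal iPCKO library at P12. Each library was made from 2 mice, taken irrespective of sex, so that there was 1 library per condition. The iPCKO mice carried the Pdgfrb(BAC)-CreERT2 transgene, a tamoxifen-inducible Cre recombinase under the regulatory sequence of Pdgfrb, with both alleles of the named gene floxed. The controls carried the floxed alleles without CreERT2, and all mice received 50 µg tamoxifen on each day from P1 to P3. Lung cells had been depleted of CD45+ cells and erythrocytes. The meningeal layers had been removed before the cortex was dissected, and cortical cells had been cleared of myelin debris. Pdgfrb is also active in other mural cells and, at a low level, in fibroblasts, so the deletion need not be limited to pericytes. The paper describes recombination as limited where PDGFRβ is low, as in fibroblasts. It cites earlier work in lung, with tamoxifen from P1 to P3, in which PDGFRα+ fibroblasts, bronchial smooth muscle cells and myofibroblasts were not labelled.

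BMP ligands are secreted dimers that bind a complex of type I receptors (Bmpr1a, Acvrl1) and type II receptors (Bmpr2), which phosphorylates the SMAD1, SMAD5 and SMAD9 proteins. These enter the nucleus with SMAD4 and switch on the Id genes, whose products bind basic helix-loop-helix factors and keep them off DNA. In blood vessels, Acvrl1 and its co-receptor endoglin (Eng) carry signals of circulating BMPs, and inherited mutations of human ACVRL1 and ENG cause hereditary haemorrhagic telangiectasia, while those of BMPR2 cause heritable pulmonary arterial hypertension.

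RefSeq promoter sequences (250 bases before to 50 bases after the transcription start, build GRCm38.p6) were at hand for 7 of the 10 genes. They were searched for GGCGCC, a GC-rich motif that SMAD1 and SMAD5 can bind and that reads the same on both strands. It was found once each in the promoters of Bmpr1a, Bmpr2 and Id2 and not in those of Bmp4, Bmp5, Bmp6 and Eng, and 3898 of all 32851 promoters of this length (11.9%) held it. The promoters of Id2, described below in type I alveolar cells and microglia, and of Bmp6, whose transcripts differed most between lung and cortical endothelium, are given below, 5′ to 3′, with the motif in capitals. Id2 lies at chr12:25096043-25096342 on the minus strand and Bmp6 at chr13:38345466-38345765 on the plus strand.
Id2: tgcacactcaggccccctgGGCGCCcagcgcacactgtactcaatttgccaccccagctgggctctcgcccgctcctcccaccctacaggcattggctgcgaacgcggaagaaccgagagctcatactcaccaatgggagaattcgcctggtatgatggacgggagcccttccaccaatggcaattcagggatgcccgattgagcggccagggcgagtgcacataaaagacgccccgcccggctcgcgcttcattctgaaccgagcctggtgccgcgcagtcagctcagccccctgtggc
Bmp6: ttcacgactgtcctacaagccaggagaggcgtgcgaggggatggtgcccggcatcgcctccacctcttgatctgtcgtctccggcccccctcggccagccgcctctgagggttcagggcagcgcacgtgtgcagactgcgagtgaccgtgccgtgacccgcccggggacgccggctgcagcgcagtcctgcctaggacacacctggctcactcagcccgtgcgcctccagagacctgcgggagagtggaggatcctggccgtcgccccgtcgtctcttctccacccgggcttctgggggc

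The 6 libraries held 33889545 to 186701379 UMIs (unique molecular identifiers, each standing for 1 captured transcript), and 3237 to 24311 barcodes per library reached the minimum of 1500 UMIs, or 700 in the shallower Hgf libraries. Of these, 72.8% to 85.4% were given a cell type by marker genes that included none of the 10, while 4.01% to 12.1% carried markers of more than 1 type and were left out. The lowest share was that of the Hgf iPCKO library, where 19.6% of barcodes had too few markers (9.98% in the Hgf control). Cells near the limits of the marker gate made up 29.7% of its endothelial and 16.8% of its AT1 (type I alveolar) cells, against 12.5% and 9.79% in the Hgf control. Pairs of libraries shared 21 to 457 barcodes, against 17.8 to 457 if the barcodes of the libraries were drawn independently. Levels are UMIs of a gene per 1000000 UMIs of the same cells (CPM), followed by an exact Poisson 95% interval that reflects counting error and leaves out differences between mice. With 1 library per condition no test was possible. Ratios are given on the log2 scale with the 95% interval of counting error, and a ratio was called past 1.5-fold where the gene had at least 50 UMIs in both libraries together and both had at least 30 cells of the type. Barcodes with at most 100 UMIs, taken as free RNA without a cell, give a background level for each gene, which stands beside the values it bears on. In pericytes, Bdnf was counted 10 times (13.9 CPM, 6.68 to 25.6) in the control and 16 times (19.3 CPM, 11.04 to 31.4) in the library labelled Bdnf iPCKO. The counted transcript was thus not lower in that library, and with these few UMIs the intervals overlapped. Hgf was counted 25 times (95.7 CPM) in control and 8 times (16.0 CPM) in Hgf iPCKO pericytes. Nodal was counted 186 times in control and 0 times in Nodal iPCKO pericytes, at least 99.4-fold lower against a floor of 3 UMIs. The floxed exons are not named in the sources used here, so counts from the 3′ ends of transcripts need not test the deletion.

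Among the ligands, Bmp6 (chr13:38529065-38684280, plus strand, GRCm39) was the one concentrated in lung endothelium. In general capillary (gCap) cells it reached 402 CPM (386 to 419) in the Bdnf control lung and 523 (493 to 555) in the Hgf control lung. Arterial cells followed with 258 (242 to 274) and 386 (355 to 418), and aerocytes (aCap), the capillary cells specialised for gas exchange, had 98.3 and 110.1. The intervals of gCap, arterial and aCap cells did not overlap in either control lung, and the aCap values lay below the 168 and 219 CPM of Bmp6 in free RNA. Over all lung endothelial cells, Bmp6 was 24.5-fold and 22.8-fold above all other cell types together in the Bdnf and Hgf control lungs. In cortical endothelium Bmp6 was nearly absent, at 7 UMIs in 695 cells or 0.828 CPM (0.333 to 1.71). The lung endothelial level was 296-fold (Bdnf control) and 381-fold (Hgf control) above that, or 8.21 (7.16 to 9.52) and 8.57 (7.53 to 9.89) on the log2 scale. Organ, age and tissue preparation differed together between these libraries and cannot be told apart. In the control cortex the transcript was instead found in fibroblasts, at 290.0 CPM (261 to 321), and in vascular smooth muscle cells (vSMCs) at 22.1. Cortical pericytes had no Bmp6 UMI in 261 control cells, which allows up to 1.97 CPM at a floor of 3 UMIs, and lung pericytes had 33.4 and 72.7 CPM from 24 and 19 UMIs. Free RNA held 168 and 219 CPM of Bmp6 in these lung libraries and 14.6 CPM in the control cortex. The lung pericyte values lay below it, and its part in them was not tested. Lung pericytes also carried 1389 and 3342 CPM of the 11 endothelial markers (20713 and 21674 CPM in endothelial cells), and the part of these in their Bmp6 was not tested. The Bmp6 locus overlaps Txndc5 on the opposite strand, and the strand setting of the counting was not given in the sources used here, so that reads of both cannot be told apart where they overlap.

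Bmp5 (chr9:75682638-75807592, plus strand, GRCm39) was highest in mesenchymal cells. Myofibroblasts, the contractile cells of the alveolar entrance rings, were highest at 557 CPM (531 to 584) in the Bdnf control and 709 (602 to 829) in the Hgf control lung. Matrix fibroblasts had 293 (270 to 317) and 262 (216 to 315), and pericytes had 135 (110 to 165) and 111 (74.4 to 159). The order of these 3 types was the same in both control lungs, and no intervals of neighbours overlapped. Club cells at 89.4 and 73.8 CPM and AT2 cells at 59.9 and 45.9 came above adventitial fibroblasts at 54.0 and 39.5 and smooth muscle at 37.8 and 0. Free RNA held 113 and 62.7 CPM of Bmp5, the former inside the interval of the Bdnf control pericytes. Cortical fibroblasts had 161 CPM (140 to 184) and cortical pericytes 109 (93.2 to 127). Bmp5 in pericytes thus lay within 1.24-fold of the cortical value in both control lungs, with intervals of the ratio that include 0 on the log2 scale. Lung endothelium held 9.10 and 4.23 CPM, and cortical endothelium 1 UMI.

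Bmp4 (chr14:46620250-46636745, minus strand, GRCm39) was spread over many lung cell types, and its order differed between the control lungs. In the Bdnf control lung, club cells at 200.2 CPM (188 to 213) and venous endothelial cells at 199.6 (187 to 213) were highest and indistinguishable. In the Hgf control lung, matrix fibroblasts at 218 (176 to 267) and type I alveolar (AT1) cells at 199 (187 to 211) were highest, and club cells had 61.9 (52.2 to 72.8). Ciliated cells had 136 CPM in the Bdnf control and 22.5 in the Hgf control lung, and aCap cells had 44.6 and 11.8. Free RNA held 120.1 CPM of Bmp4 in the Bdnf control and 73.2 in the Hgf control library, above the club and ciliated values of the Hgf control and both aCap values. In the cortex, by contrast, Bmp4 was found mainly in fibroblasts at 269 CPM (242 to 299), followed by pericytes at 36.2, while endothelium had 7.22.

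Bmp2 (chr2:133394079-133404816, plus strand, GRCm39) was the sparsest ligand in the lung. Pericytes had 34.8 CPM (22.5 to 51.4) in the Bdnf control and 34.5 (15.7 to 65.4) in the Hgf control lung, from 25 and 9 UMIs. Type II alveolar (AT2) cells, which make surfactant, had 31.7 (30.2 to 33.3) and 24.5 (22.7 to 26.4), so that the first and second type overlapped. Free RNA held 20.8 and 17.4 CPM of Bmp2 in these libraries and 14.6 in the control cortex. Cortical pericytes had 5.26 CPM from 8 UMIs, below the free RNA of their library, and with so few UMIs no ratio to the lung pericytes is given. Cortical fibroblasts had 137 CPM (117 to 158) and vSMCs 73.6 (49.7 to 105). Among the 7 cortical types with at least 30 cells, fibroblasts therefore had the highest level of each of the 4 ligands, although 15% of their Bmp2 UMIs came from 1 cell.

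**Figure D1:**
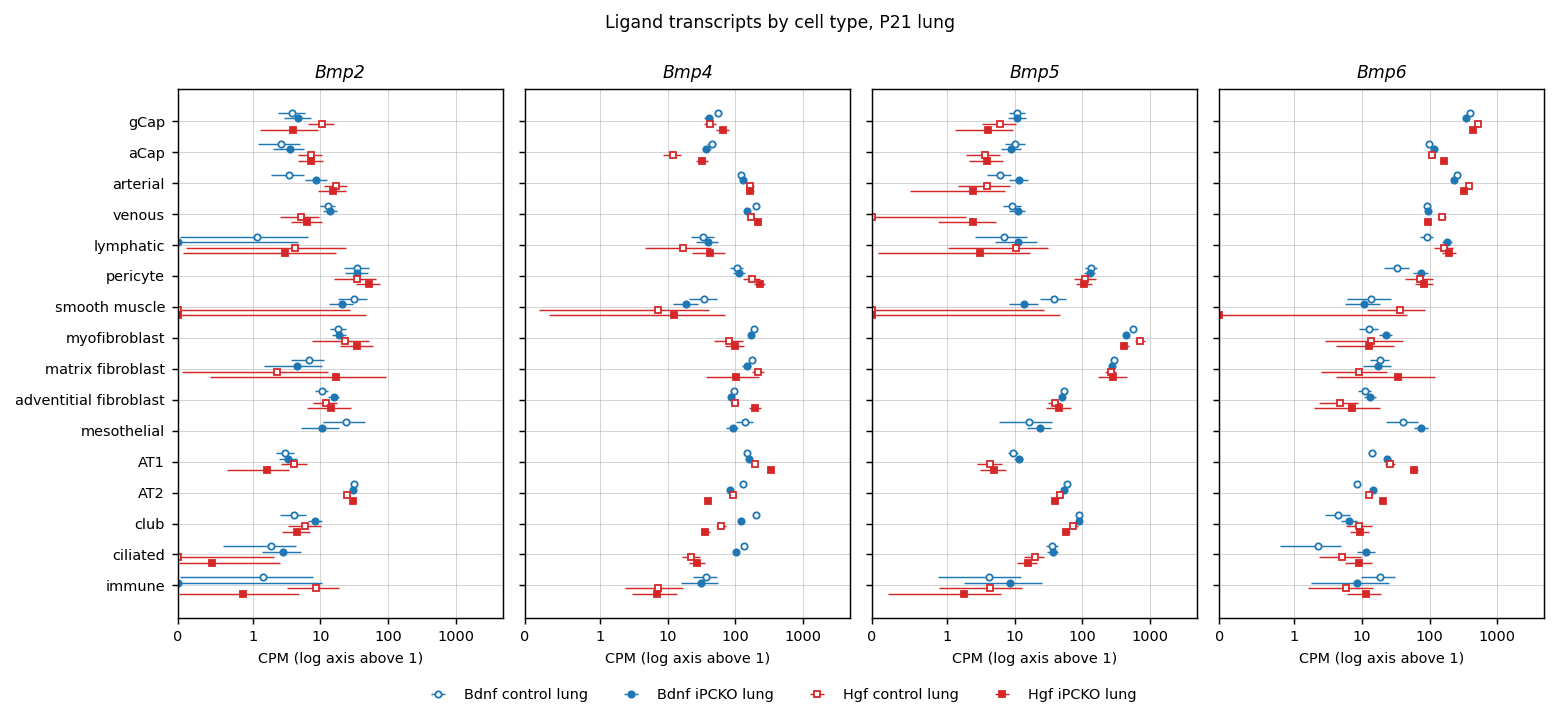
Levels of the 4 ligands (CPM, log axis above 1) in each lung cell type, for the Bdnf (blue) and Hgf (red) control (open) and iPCKO (filled) libraries. Bars are exact Poisson 95% intervals. Bmp6 is highest in gCap cells at 402 and 523 CPM in the controls, Bmp5 in myofibroblasts at 557 and 709 CPM, and Bmp4 is spread over most types.

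Bmpr2 (chr1:59802544-59918173, plus strand, GRCm39), the type II receptor, and Acvrl1 (chr15:101025996-101043217, plus strand, GRCm39), the endothelial type I receptor, both peaked in lung capillaries. Bmpr2 reached 1656 CPM (1614 to 1700) in aCap and 1533 (1501 to 1567) in gCap cells of the Bdnf control lung. In the Hgf control lung, aCap cells had 1792 (1749 to 1836) and gCap cells 1876 (1818 to 1935), with overlapping intervals. Pooled lung endothelium had 1382 and 1615 CPM against 262 (251 to 273) in cortical endothelium, a 5.27-fold and 6.16-fold difference. The excess of endothelium over all other types was 9.62-fold and 11.8-fold in the control lungs and 2.74-fold in the control cortex, where each of the 7 types with at least 30 cells held 65.0 CPM or more. The cortical endothelial value lay below the 278 CPM of Bmpr2 in free RNA of that library, and the lung endothelial values lay above the 569 and 611 CPM of theirs.

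Acvrl1 was highest in aCap cells of both control lungs, at 827 CPM (797 to 859) and 1176 (1141 to 1212), followed by gCap cells at 520 (501 to 539) and 888 (848 to 929). Cortical endothelium had 210.1 CPM (200.4 to 220.1). Unlike Bmpr2, Acvrl1 kept its endothelial excess in both organs, at 26.8-fold and 26.7-fold over other types in the lungs and 32.7-fold in the cortex. The level of Acvrl1 itself was not the same in the control lungs. It was 489 CPM in endothelium of the Bdnf control and 869 in that of the Hgf control, a log2 ratio of 0.83 (0.79 to 0.87).

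Eng (chr2:32535543-32574661, plus strand, GRCm39), the co-receptor, had nearly the same level in lung and cortical endothelium. Endothelial levels were 385 CPM (377 to 393) and 446 (434 to 458) in the control lungs and 408 (394 to 421) in the control cortex, so that the cortical value lay between the lung values. Pericytes were the only mural or stromal type above 100 CPM in the control lungs, with 156 (128 to 188) and 302 (239 to 377), and cortical pericytes had 139 (121 to 160), against 114, 183 and 217 CPM in free RNA of these libraries. The Eng locus overlaps Fpgs on the opposite strand, with the same limit as for Bmp6.

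Bmpr1a (chr14:34132687-34225379, minus strand, GRCm39), the other type I receptor, had the reverse pattern. Lung endothelium held 17.5 CPM (15.9 to 19.3) and 14.7 (12.6 to 16.9), and cortical endothelium 1.06 from 9 UMIs. These were 0.119-fold, 0.118-fold and 0.00811-fold of the level in all other types together. Smooth muscle had 303 CPM (260 to 351) and 459 (353 to 587) in the control lungs, myofibroblasts 247 and 345, and AT1 cells 214 and 221. Mesothelial cells had 314 CPM (260 to 377) in the Bdnf control lung, which overlapped smooth muscle. In the control cortex, vSMCs had 260 CPM (213 to 315), astrocytes 201 (191 to 212), fibroblasts 186 and pericytes 160.

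Id1 (chr2:152566218-152579544, plus strand, GRCm39) followed the endothelial receptors. Endothelial cells held 219 CPM (213 to 225) and 352 (342 to 362) in the control lungs and 203 (193 to 213) in the control cortex, 7.40-fold, 10.5-fold and 6.32-fold above the other types. Venous cells at 278 and arterial cells at 266 were highest in the Bdnf control lung with overlapping intervals, and arterial cells at 480 (446 to 516) were highest in the Hgf control lung. Outside endothelium, ciliated cells had 168 (153 to 185) and 118 (103 to 136), and AT2 cells were among the lowest at 17.3 and 22.3.

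Id2 (chr12:25143798-25147282, minus strand, GRCm39) did not follow them. In the control lungs it was high in smooth muscle at 459 CPM (406 to 518) and 510 (397 to 644), in adventitial fibroblasts at 324 (312 to 337) and 510 (480 to 542), in ciliated cells at 399.7 and 286, and in AT2 cells at 371 (366 to 377) and 291 (285 to 297). Matrix fibroblasts were lowest in both at 32.5 and 39.0 CPM, next to adventitial fibroblasts that were among the highest. In the control cortex, astrocytes had 1310 CPM (1284 to 1337), more than any lung type, and microglia had 419 (402 to 437), neurons 380 (351 to 410) and fibroblasts 342 (311 to 375). Cortical pericytes were lowest at 23.7 CPM (16.6 to 32.8), and the pericytes of the Bdnf and Hgf control lungs had 145 (118 to 175) and 138 (96.5 to 191). The lung values were 6.11-fold (Bdnf control) and 5.82-fold (Hgf control) above the cortical one, or 2.61 (2.05 to 3.20) and 2.54 (1.83 to 3.25) on the log2 scale. All 3 levels lay below the Id2 level of free RNA in their libraries (323, 229 and 152 CPM). The part of free RNA in this difference between the organs was not tested.

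**Figure D2:**
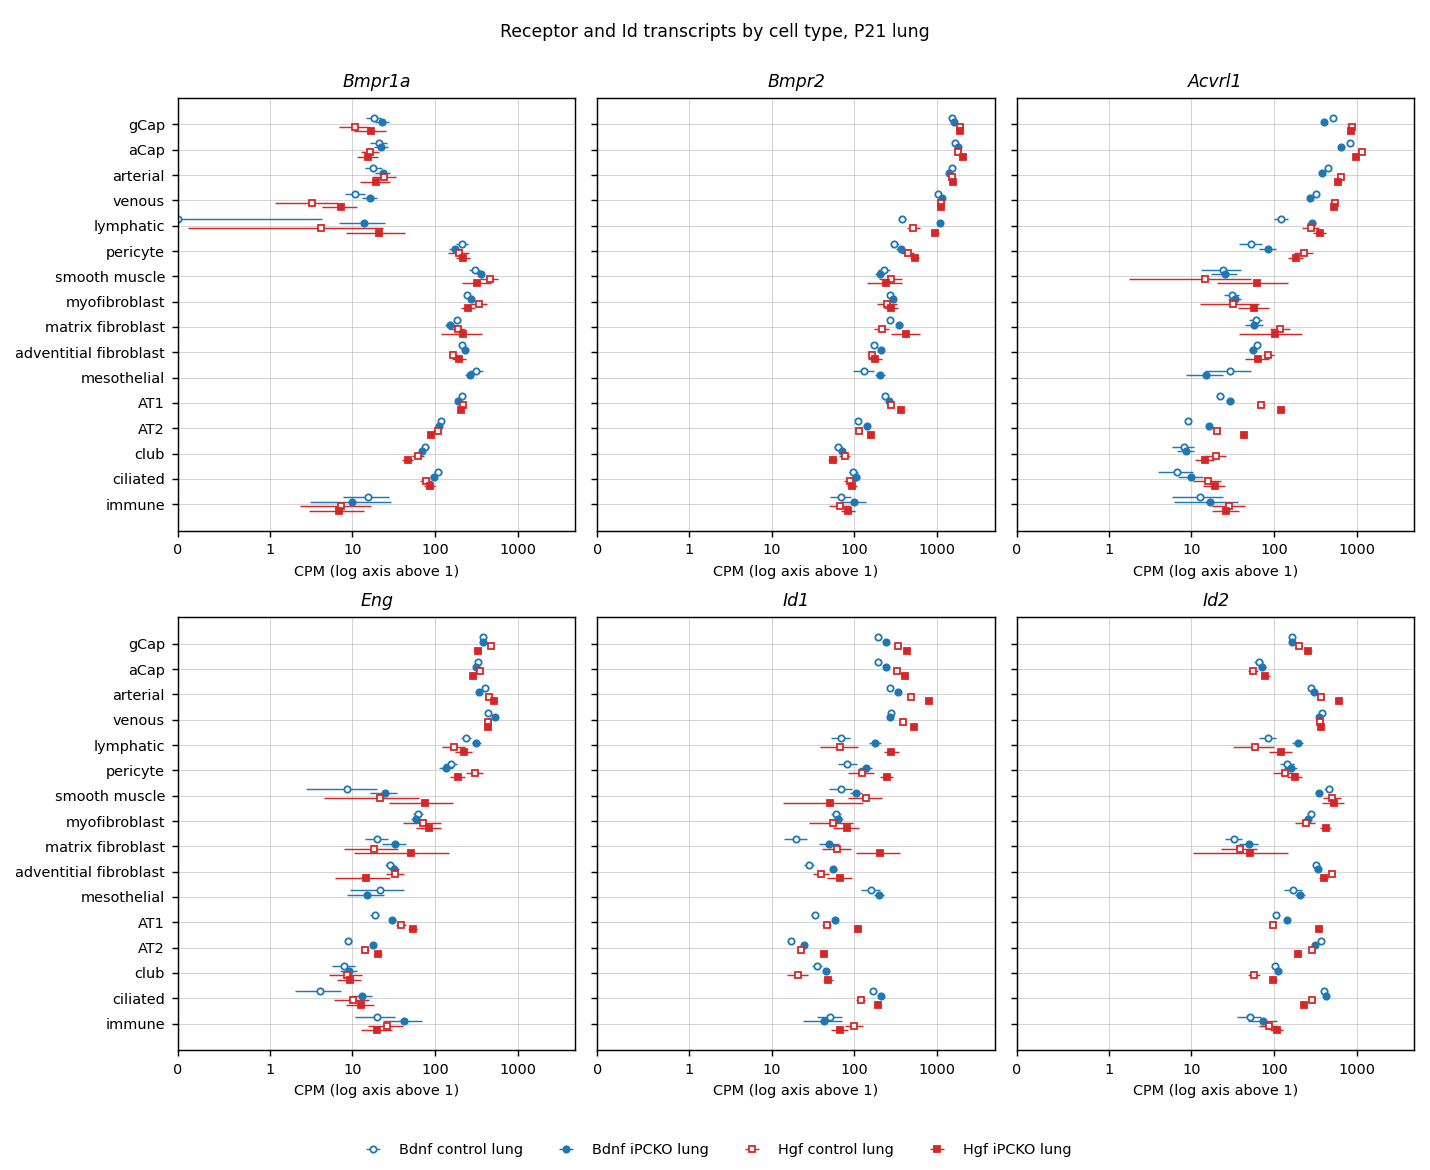
Levels of the receptors Bmpr1a, Bmpr2, Acvrl1 and Eng and of Id1 and Id2 (CPM, log axis above 1) in each lung cell type, for the Bdnf (blue) and Hgf (red) control (open) and iPCKO (filled) libraries, with exact Poisson 95% intervals. Bmpr2, Acvrl1, Eng and Id1 are highest in the vascular endothelial rows at the top, where Bmpr1a is at 24.3 CPM or less, and Id2 is spread over endothelial, mesenchymal and epithelial rows.

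Across the 15 lung cell types with enough cells in both control lungs, the log2 levels of Bmp6, Bmpr2, Acvrl1 and Eng ran together, with Pearson correlations of 0.89 to 0.95 between pairs, and Id1 correlated with each of them at 0.71 to 0.77. Bmpr1a correlated negatively with these genes, at -0.42 to -0.60. These are descriptions over types that share libraries, and 5 of the 15 types are endothelial subtypes. Among 8117 expressed genes, the patterns most like the endothelial members were Sox17 for Bmp6 (r = 0.98), an arterial transcription factor that was itself a gate marker, Tmem100 for Acvrl1 (0.97), Luzp1 for Bmpr2 (0.97), Fendrr for Eng (0.97) and Arl2bp for Id1 (0.92). Bmp5 was most like Wnt5a (0.84), a Wnt ligand and also a gate marker, Bmpr1a most like Rasl11b (0.94), and Bmp2 most like the imprinted non-coding RNA Meg3 (0.82). The closest genes were less alike for Id2 (Kank1, 0.78) and Bmp4 (Pcgf2, 0.74).

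Ratios of the members past 1.5-fold upwards were more frequent than among all genes in each pair, and those past it downwards were less frequent. The same held between the control lungs, where no deletion was compared. In the Bdnf pair, 20 of 100 gene-by-type ratios were higher and 3 lower by at least 1.5-fold in the library labelled Bdnf iPCKO, against 8.03% higher and 5.51% lower among all gene-by-type ratios with enough UMIs. In the Hgf pair, 16 of 79 were higher and 7 lower, against 14.5% and 15.3%. In the Nodal pair, 4 of 41 were higher and 0 lower, against 4.95% and 5.78%. Between the control lungs, 19 of 85 ratios of the members were higher and 9 lower in the Hgf control than in the Bdnf control, against 10.9% and 16.1%. Many of these ratios were of low levels. In 16 of the 20 higher ratios of the Bdnf pair, 10 of the 16 of the Hgf pair, 1 of the 4 of the Nodal pair and 10 of the 19 between the control lungs, both values lay below the free RNA of their own library. In the Bdnf pair 10 of 12 cell types and in the Hgf pair 9 of 11 had at least 1 member past 1.5-fold, while pooled endothelium had none of 10 members in the Bdnf pair, none of 10 in the Hgf pair and none of 7 in the Nodal pair. Among all genes of endothelium, 5.9% were higher and 5.6% lower in the Bdnf pair, 11.1% and 16.1% in the Hgf pair, and 3% and 4.6% in the Nodal pair. With so few members, none past it is near the shares of the Bdnf and Nodal pairs.

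In pooled endothelium, Id1 was above the control in both lung pairs without reaching 1.5-fold. It had 219 CPM in the Bdnf control, 262 in the library labelled Bdnf iPCKO, 352 in the Hgf control and 487 in the Hgf iPCKO lung. The log2 ratio was 0.26 (0.20 to 0.31) in the Bdnf pair and 0.47 (0.41 to 0.52) in the Hgf pair, and the control lungs differed by 0.68 (0.62 to 0.74). In the cortex Id1 was at 203 CPM in the control and 168 in the Nodal iPCKO library, a ratio of -0.27 (-0.36 to -0.18). The differences within the lung pairs were therefore smaller than that between the control lungs. The Bdnf and Hgf control lungs also differed in floxed allele, in the minimum of UMIs per barcode (1500 and 700) and in the median UMIs per endothelial cell (4334 and 2354).

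In pooled endothelium the ligand Bmp6 and the receptor Acvrl1 lay slightly below the control in both lung pairs. Bmp6 was at 245 and 221 CPM in the Bdnf pair and 315 and 268 in the Hgf pair, ratios of -0.15 (-0.20 to -0.10) and -0.23 (-0.30 to -0.17). The subtypes did not move together. In gCap cells, where Bmp6 was highest, it was at 402 and 345 CPM in the Bdnf pair and 523 and 443 in the Hgf pair. In aCap cells it was at 98.3 and 116 CPM in the Bdnf pair and 110.1 and 166 in the Hgf pair, past 1.5-fold higher in the latter (ratio 0.59, 0.40 to 0.78), with all 4 values below those of free RNA. Venous cells had 92.4 and 95.8 CPM in the Bdnf pair and 155 and 93.8 in the Hgf pair, past 1.5-fold lower in the latter (-0.72, -0.98 to -0.47), again below free RNA. Acvrl1 was at 489 and 414, and at 869 and 770.0, with ratios of -0.24 and -0.17 over all endothelial cells. Bmpr2 was within 0.09 in both pairs, and Eng had 0.07 in the Bdnf and -0.23 in the Hgf pair. In the Nodal pair, Acvrl1 was unmoved at 210.1 and 211 CPM (log2 ratio 0.01, -0.08 to 0.09), Bmpr2 had -0.14 and Eng -0.26 (-0.32 to -0.20).

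Arterial cells of the Hgf pair were the endothelial subtype with both Id genes past 1.5-fold among those of the blood vessels. Id1 had 266 and 335 CPM in the Bdnf pair and 480 and 807 in the Hgf pair, a ratio of 0.75 (0.61 to 0.89) in the latter. Id2 had 282 and 309 in the Bdnf pair and 367 and 619 in the Hgf pair, again with a ratio of 0.75 (0.59 to 0.91). Among all genes of arterial cells in the Hgf pair, 9.9% were higher and 17.5% lower by at least 1.5-fold. Arterial Id1 also differed past 1.5-fold between the control lungs, at 266 and 480 CPM. The summed lymphatic markers of the arterial cells moved too, from 1875 to 8181 CPM in the Hgf pair, of which Lyve1 made up 1791 and 8080, and its part in the Id values was not tested.

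Cells gated as lymphatic endothelium had the most members past 1.5-fold of any endothelial subtype, 5 of 7 higher in the Bdnf pair and 3 of 6 in the Hgf pair. All genes in these cells were also past 1.5-fold higher more often than in the other endothelial subtypes, at 12.9% in the Bdnf and 17.4% in the Hgf pair. Bmpr2 was at 380 and 1071 CPM in the Bdnf pair and 516 and 952 in the Hgf pair. Id1 was at 68.4 and 177, and at 67.7 and 280, with a ratio of 2.05 (1.28 to 2.91) from 16 and 93 UMIs in the Hgf pair. The control values of Bmpr2 in both pairs lay below free RNA (569 and 611 CPM), as did Id1 in the Hgf control (76.2). At the same time the 7 lymphatic markers of these cells summed to 26852 and 12995 CPM in the Bdnf pair and 27062 and 15858 in the Hgf pair, and the 11 endothelial markers to 8896 and 15178, and 11063 and 14628. Ccl21a made up most of the fall, at 16579 and 5785 CPM in the Bdnf pair and 19198 and 4735 in the Hgf pair. In the Hgf pair Prox1 was also lower (723 and 542 CPM) and Mmrn1 was level (3803 and 3779). Lyve1 (990 and 3969), Reln (1091 and 1367), Flt4 (1218 and 1298) and Nts (38.1 and 169) were higher there. In the Bdnf pair only Lyve1 was higher (2839 and 3368). The 11 endothelial markers were a list for all endothelium, not for blood vessels alone. The part of these shifts in the members' values was not tested. With the gate set on barcodes thinned to equal depth, the Bmpr2 ratio in the Bdnf pair was 0.50 instead of 1.49.

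AT1 cells of the Hgf pair, the thin cells that line the alveoli, had the highest ratio of an Id gene over the 11 cell types compared in that pair, below Id1 in the lymphatic subtype. Id2 had 104 CPM (99.2 to 110) in the Bdnf control, 142 (136 to 149) in the library labelled Bdnf iPCKO, 96.2 (88.1 to 105) in the Hgf control and 351 (334 to 369) in the Hgf iPCKO lung. The Hgf iPCKO library stood above the other 3 lung libraries, whose AT1 values lay between 96.2 and 142 CPM. The Hgf ratio was 1.87 (1.72 to 2.01), or 3.65-fold, and the control lungs differed by -0.12. An Id2 UMI was found in 29.4% of AT1 cells of the Hgf control (median 4574 UMIs per cell) and 58.5% of those of the Hgf iPCKO library (3092). With every cell thinned to 700 UMIs the shares were 7.74% and 19.9%, and no cell gave more than 0.67% of the Hgf iPCKO UMIs. The thinned share in matrix fibroblasts, the type with the lowest Id2 level, was 4.35% and 5.26% (medians of 2417 and 1267 UMIs per cell). Free RNA held 152 and 172 CPM of Id2 in these libraries, between the AT1 values.

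Id1 moved in the same cells, at 33.0 and 59.0 CPM in the Bdnf pair and 46.1 and 111 in the Hgf pair, with ratios of 0.84 (0.67 to 1.01) and 1.27 (1.05 to 1.5). All 4 values lay below the Id1 level of free RNA, which was 56.2 and 91.6 CPM in the Bdnf pair and 76.2 and 138 CPM in the Hgf pair. The part of free RNA in the Id1 values of AT1 cells was not tested. Bmp4 was at 149 and 161, and at 199 and 339.6, with ratios of 0.11 and 0.77 (0.66 to 0.89), above the 73.2 and 70.1 CPM of free RNA in the Hgf pair. In all, 5 of 8 members were past 1.5-fold higher in AT1 cells of the Hgf pair, against 12.7% of all genes in these cells. The remaining members were Bmp6 at 25.99 and 59.4 CPM and Acvrl1 at 70.0 and 123, both genes of endothelium and both below free RNA (219 and 277 CPM of Bmp6, 161 and 184 of Acvrl1). With the gate set on barcodes thinned to equal depth, the Acvrl1 ratio was 0.14 instead of 0.82, which ends that call. The 11 endothelial markers, all found in AT1 cells, summed to 1916 and 3197 CPM in AT1 cells of the Hgf pair (21674 and 19799 in endothelium), and the 11 AT2 markers to 12354 and 3714 CPM. When cells with over 0.3% of UMIs from endothelial markers were left out, these markers summed to 655 and 582 CPM, Bmp6 was at 8.05 and 12.6 CPM (ratio 0.64, -0.12 to 1.36) and Acvrl1 at 10.9 and 19.1. Id2 was then at 90.2 and 404 CPM (ratio 2.16, 1.99 to 2.34), Id1 at 29.0 and 59.2 (1.03) and Bmp4 at 211 and 418 (0.98). The list of 16 dissociation and immediate-early genes had 7 higher by at least 1.5-fold and a median ratio of 0.32 in AT1 cells of the Hgf pair, and 9 higher and a median of 0.61 in the Bdnf pair. Its part in the Id values was not tested.

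In the secretory epithelium Bmp4 was lower in both lung pairs. AT2 cells had 131 CPM (128 to 134) in the Bdnf control, 83.2 in the library labelled Bdnf iPCKO, 92.7 (89.1 to 96.3) in the Hgf control and 39.1 in the Hgf iPCKO lung. The ratios were -0.65 (-0.71 to -0.60) and -1.25 (-1.37 to -1.12), and without cells rich in endothelial markers they were -0.63 and -1.33. The 11 AT2 markers of these cells summed to 123939 and 113102 CPM in the Bdnf pair and 140659 and 98723 in the Hgf pair. The 9 club markers summed to 4950 and 6275, and to 6750 and 16511. The part of either list in the Bmp4 values was not tested. Free RNA held 120.1 and 109 CPM of Bmp4 in the Bdnf pair and 73.2 and 70.1 CPM in the Hgf pair. These lay above the AT2 values of both libraries labelled iPCKO and the club values of both Hgf libraries. Club cells, the secretory cells of the bronchioles, had 200.2 and 124 CPM in the Bdnf pair and 61.9 and 36.2 in the Hgf pair, with ratios of -0.69 and -0.77. Between the control lungs, club cells differed by -1.69 (-1.96 to -1.44), more than either pair. The opposite direction was found in Hgf adventitial fibroblasts, with 98.8 and 197 CPM and a ratio of 0.998 (0.65 to 1.34), while the Bdnf pair had 95.1 and 88.0 CPM. The 8 matrix fibroblast markers in adventitial fibroblasts summed to 1369 and 3007 CPM in the Hgf pair and 947 and 1016 in the Bdnf pair. Their part in the Bmp4 values was not tested.

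**Figure D3:**
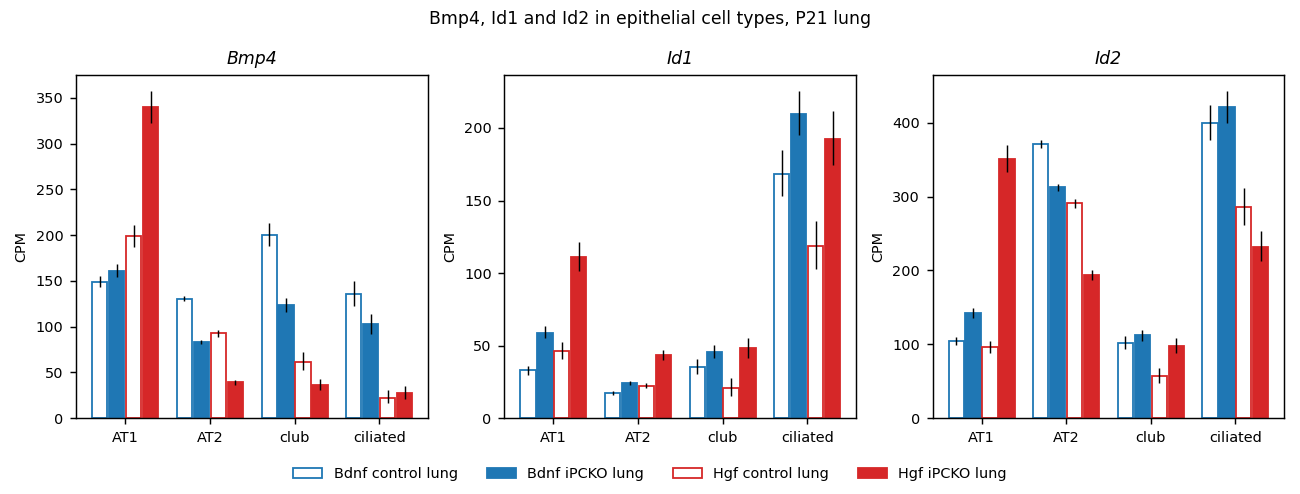
Levels of Bmp4, Id1 and Id2 (CPM, bars from 0, with exact Poisson 95% intervals) in AT1, AT2, club and ciliated cells of the 4 lung libraries. The Hgf iPCKO library (filled red) has 351 CPM of Id2 and 339.6 of Bmp4 in AT1 cells, above the other 3 libraries, and the lowest Bmp4 in AT2 and club cells at 39.1 and 36.2 CPM, both below the 70.1 CPM of free RNA.

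Id2 in AT2 cells went the other way from AT1 cells, at 371 and 312 CPM in the Bdnf pair and 291 and 194 in the Hgf pair, with ratios of -0.25 and -0.58, the latter just inside 1.5-fold. Id1 in AT2 cells was at 17.3 and 24.2, and at 22.3 and 43.3 CPM, with a ratio of 0.96 (0.80 to 1.11) in the Hgf pair, again below the level in free RNA. In AT2 cells Acvrl1 was at 9.10 and 16.4, and at 20.6 and 43.6 CPM, and Eng at 8.99 and 17.7, and at 14.3 and 20.3 CPM. The free-RNA levels of Acvrl1 were 78.9, 78.3, 161 and 184 CPM in the 4 lung libraries, above every AT2 value, and the part of free RNA in these AT2 differences was not tested. Without cells rich in endothelial markers, Id1 had 0.66 (0.45 to 0.87) and Acvrl1 0.73 (0.36 to 1.11) in AT2 cells of the Hgf pair. Eng had 0.88 (0.63 to 1.13) in those of the Bdnf pair.

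Over all lung cell types, Id1 was past 1.5-fold higher in 5 of 12 types of the Bdnf pair and 6 of 8 of the Hgf pair, and lower in 1, the residual immune cells of the Hgf pair. Among all gene-by-type ratios, 8.03% were higher and 5.51% lower in the Bdnf pair, and 14.5% and 15.3% in the Hgf pair. In 7 of the 11 higher ratios of Id1 both values lay below free RNA, and the other 4 were pericytes in both pairs, smooth muscle in the Bdnf pair and ciliated cells in the Hgf pair. Bmp6 was past 1.5-fold higher in 5 of 9 types of the Bdnf pair, with every value below free RNA. Between the control lungs Id1 was past 1.5-fold higher in 4 and lower in 1 of 11 types, against 10.9% and 16.1% of all ratios. Id1 in pericytes was at 82.1 (62.5 to 106) and 138 CPM in the Bdnf pair and 123 and 247 in the Hgf pair, with ratios of 0.74 (0.28 to 1.22) and 1.01 (0.44 to 1.62), whereas cortical pericytes had 70.4 and 49.7 CPM and a ratio of -0.50 (-0.89 to -0.11), both below the 72.3 and 61.6 CPM of free RNA. Id1 in adventitial fibroblasts was at 28.4 and 55.6, and 39.5 and 67.0 CPM, with ratios of 0.97 and 0.76, all below the level in free RNA. The 11 endothelial markers in lung pericytes summed to 1389 and 2640 CPM in the Bdnf pair and 3342 and 3803 in the Hgf pair, higher in both libraries labelled iPCKO, as Id1 was. The 11 AT2 markers summed to 5655 and 15607 CPM, and to 10374 and 1951. The part of these markers in the Id1 values was not tested. The dissociation list had a median of 1.02 with 12 of 16 genes past 1.5-fold higher in Bdnf pericytes, and a median of -0.07 with none higher of 15 in Hgf pericytes. When cells with markers of other types were left out, the pericyte ratio of Id1 was 0.76 (0.21 to 1.33) in the Bdnf pair and 0.53 (-0.33 to 1.46) in the Hgf pair, and the endothelial markers summed to 329 and 509, and 383 and 588 CPM.

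Bmp5 in myofibroblasts was lower in both pairs, at 557 and 446 CPM in the Bdnf pair and 709 and 415 in the Hgf pair, with ratios of -0.32 (-0.42 to -0.22) and -0.77 (-1.10 to -0.45). Only the latter was past 1.5-fold. The 7 myofibroblast markers of these cells summed to 13048 and 13776 CPM in the Bdnf pair and 18577 and 11391 in the Hgf pair. Cells near the limits of the marker gate made up 49.4% and 54.8% in the Bdnf pair and 46.9% and 74.9% in the Hgf pair. The part of these shifts in the Bmp5 values was not tested. Hgf myofibroblasts also had 241 and 423 CPM of Id2, but with a stricter marker gate the ratio was -0.08 instead of 0.81. Without cells rich in markers of other types it was 1.02 (0.54 to 1.54). Eng in Hgf pericytes was at 302 and 190.5 CPM, a ratio of -0.67 (-1.11 to -0.22), and Bdnf pericytes had 156 and 138 CPM. Free RNA held 183 and 209 CPM of Eng in the Hgf pair and 114 and 146 in the Bdnf pair, above the values of both libraries labelled iPCKO. The highest Eng ratio over the lung types was 1.68 (0.71 to 2.78) in ciliated cells of the Bdnf pair, from 4.06 to 13.03 CPM, both far below free RNA. Bmpr1a was not past 1.5-fold in any of 11 cell types of the Bdnf pair, 10 of the Hgf pair or 6 of the Nodal pair, with ratios from -0.49 to 0.34, and among the endothelial subtypes it was past it in venous cells of the Bdnf pair, at 10.8 and 16.3 CPM against 160 and 143 in free RNA.

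**Figure D4:**
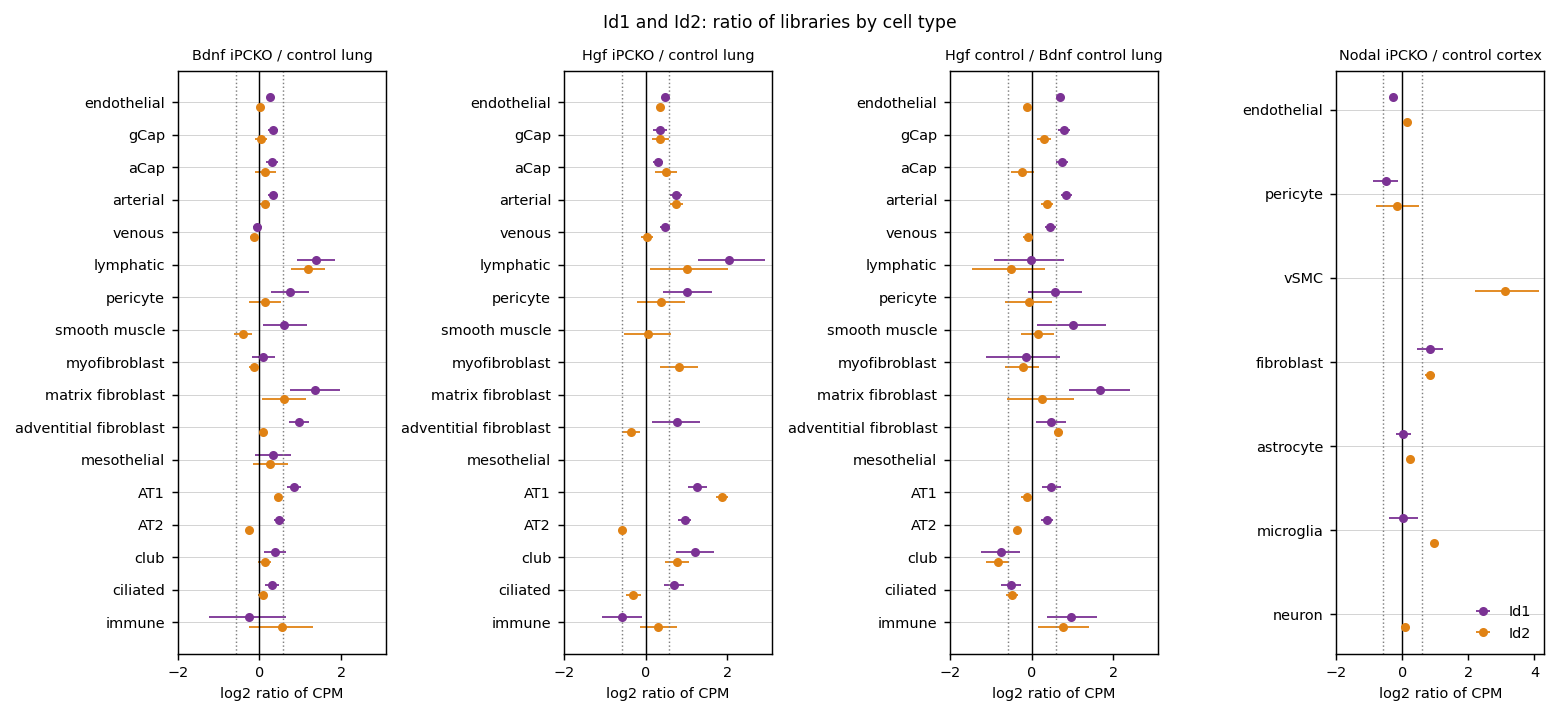
Log2 ratio of CPM for Id1 (purple) and Id2 (orange) by cell type in the Bdnf, Hgf and Nodal pairs and between the control lungs, with 95% intervals of counting error. Dotted lines mark 1.5-fold. Id2 in AT1 cells of the Hgf pair lies at 1.87 and in microglia of the Nodal pair at 0.95, and the panel of the control lungs shows endothelial Id1 at 0.68 with no deletion compared.

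In the cortex, 3 of the 4 ratios past 1.5-fold were of Id2. Microglia, the resident macrophages, had 419 CPM (402 to 437; 2324 UMIs in 854 cells) in the control and 809 (791 to 827; 7809 UMIs in 1378 cells) in the Nodal iPCKO library, a ratio of 0.95 (0.88 to 1.02). This was the only member of 6 past 1.5-fold in microglia, where 6.38% of all genes were higher. An Id2 UMI was found in 52.5% and 65.3% of microglia (medians of 6196 and 6472 UMIs per cell), and in 30.4% and 46.4% of those thinned to 1500 UMIs. The thinned share in pericytes was 2.68% and 2.84% (medians of 5377 and 5715), and the free-RNA level of Id2 was 323 and 349 CPM. The 10 astrocyte markers in microglia summed to 175 and 107 CPM, and the dissociation list had a median of -0.22 with none of 16 genes higher. The part of either in the Id2 values was not tested. Astrocytes, with the highest level, had 1310 and 1555 CPM (ratio 0.25).

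Cortical fibroblasts had 342 (311 to 375) and 613 CPM (574 to 653) of Id2 and 67.5 and 121 CPM of Id1, both with a ratio of 0.84, the control Id1 value lying below the 72.3 CPM of free RNA. Their dissociation list had a median of 0.16 with none of 16 genes past 1.5-fold, and the astrocyte markers summed to 2373 and 2236 CPM. In vSMCs Id2 was at 27.0 and 231 CPM from 11 UMIs in 44 cells and 111 UMIs in 63 cells, but 1 cell gave 31.5% of the latter and 12 of 16 dissociation genes were past 1.5-fold higher, and both values lay below free RNA. Cortical pericytes, the target cells of the deletion, had none of 8 members past 1.5-fold, near the shares of all genes in these cells (5.3% higher and 3.98% lower). Their Bmp5 was at 109 and 81.7 CPM, a ratio of -0.42 (-0.72 to -0.11).

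**Figure D5:**
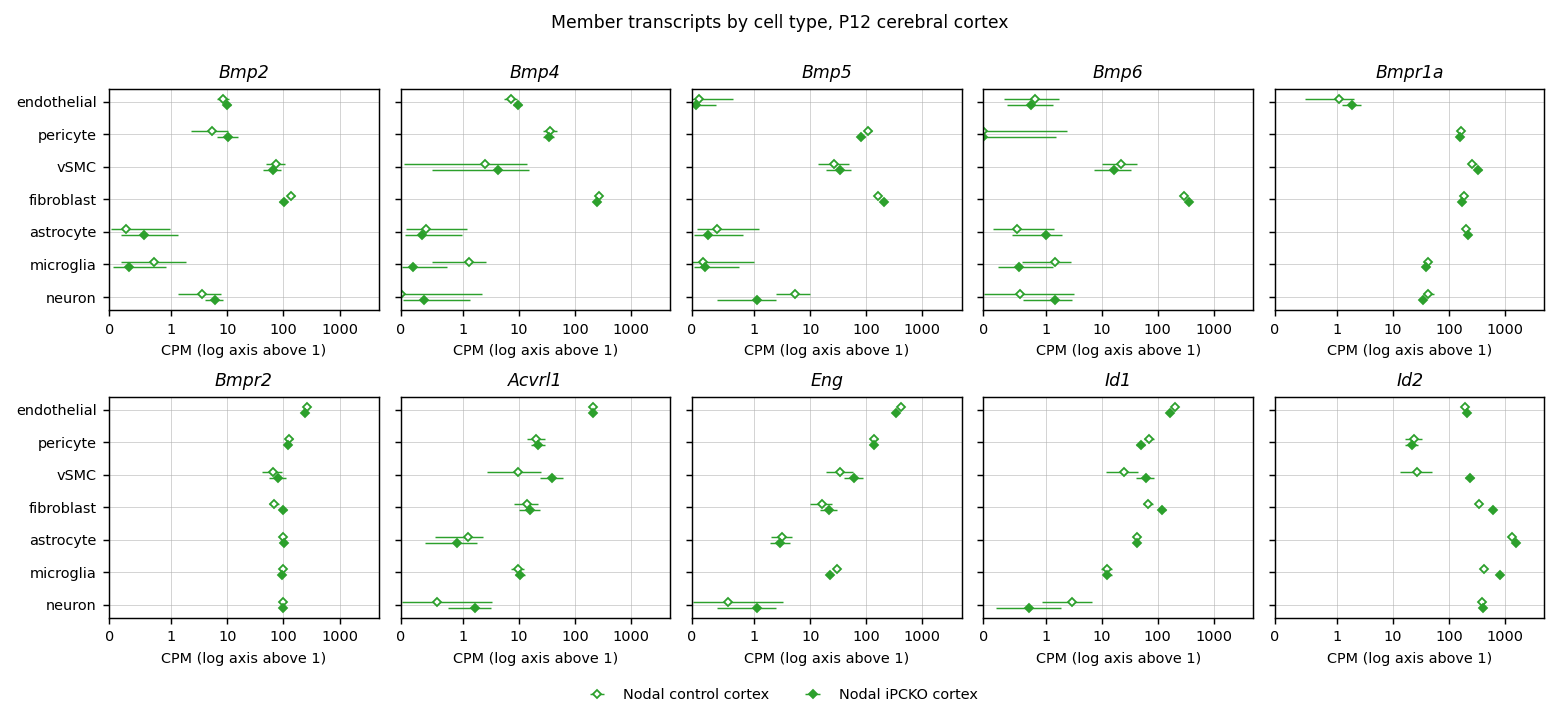
Levels of the 10 genes (CPM, log axis above 1) in 7 cell types of the Nodal control (open) and Nodal iPCKO (filled) cortex, with exact Poisson 95% intervals. Each ligand is highest in fibroblasts, Bmpr2, Acvrl1, Eng and Id1 in endothelium and Id2 in astrocytes, and the separation of open and filled symbols is clearest for Id2 in microglia, fibroblasts and vSMCs.

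The other Id genes were read beside the members. Id3 had 210 and 308 CPM and Id4 60.5 and 87.5 in AT1 cells of the Hgf pair, both higher by less than 1.5-fold. In endothelium Id3 was at 597 and 651 CPM in the Bdnf pair and 689 and 1010 in the Hgf pair. In cortical microglia Id3 was nearly absent at 5.77 and 4.87 CPM, so that Id2 differed there without it.

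Of a wider list of 50 BMP pathway genes, 47 of 304 gene-by-type ratios were higher and 16 lower by at least 1.5-fold in the Bdnf pair (15.5% and 5.26%, against 8.03% and 5.51% of all ratios). The counts were 49 and 31 of 206 in the Hgf pair (23.8% and 15.05%, against 14.5% and 15.3%) and 16 and 16 of 159 in the Nodal pair (10.1% each, against 4.95% and 5.78%). Between the control lungs they were 30 and 51 of 250 (12% and 20.4%, against 10.9% and 16.1%). Among the extracellular inhibitors, Fst, follistatin, which binds activins and BMPs, was at 211 and 800.2 CPM in Hgf pericytes (ratio 1.93, 1.52 to 2.36). Among the receptors, the co-receptor Tgfbr3 was at 294 and 1152 CPM in matrix fibroblasts (ratio 1.97) and 689 and 2069 in myofibroblasts (1.59) of the Hgf pair. The Bdnf control lung had 619 CPM in matrix fibroblasts and 1246 in myofibroblasts, in each case between the values of the Hgf control and Hgf iPCKO libraries. Of the 38 Hgf iPCKO matrix fibroblasts, 86.8% lay near the limits of the marker gate. In AT1 cells Tgfbr3 was at 15.4 and 56.9 CPM (1.88), below the 101 and 238 CPM of free RNA. It was past 2-fold higher too in pericytes (1.28), adventitial fibroblasts (1.16) and AT2 cells (1.10, from values below free RNA) of the Hgf pair.

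Among the ligands, Bmp3 was at 351 and 67.7 CPM in Hgf matrix fibroblasts, from 153 and 4 UMIs in 161 and 38 cells (ratio -2.38, -4.27 to -0.99), and at 65.3 and 215 CPM in smooth muscle of the Bdnf pair (1.72). Of the targets, the inhibitory SMADs Smad6 and Smad7 and the endothelial protein gene Tmem100 had ratios of 1.80, 1.85 and 1.69 in cells gated as lymphatic in the Bdnf pair, and Smad6 1.84 in the Hgf pair, the gate whose markers moved as given above. Smad6 had 1.53 in Bdnf matrix fibroblasts and Id3 1.62 in Hgf club cells, both from values below free RNA. In cortical neurons of the Nodal pair, Id4 and Twsg1, which encodes a BMP-binding protein, had ratios of -1.58 and -1.52, from 70 and 195 neurons, with both Id4 values below free RNA.

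In the control libraries, the pathway genes of highest level per list were Gdf10 in adventitial fibroblasts (545 and 234 CPM) and Bmp3 in matrix fibroblasts (285 and 351) for the ligands, and Tgfbr3 in myofibroblasts (1246 and 689) for the receptors. Tmem100 led the targets in gCap cells (2185 and 2752), where Bmp6 was also highest. In the cortex, Bmp7 led the ligands in fibroblasts at 317 CPM, next to the 4 member ligands that were highest there, Rgma led the receptors in astrocytes at 252, and Id3 led the targets in vSMCs at 695.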

How the data were processed

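Cells of P21 lung and P12 cerebral cortex were sequenced with BD Rhapsody whole transcriptome libraries. The authors aligned reads to GRCm39 with STAR 2.7.10a (STARsolo), without a cell filter, and spread multi-mapping reads by expectation maximisation, so the deposited values are estimated counts of UMIs, of which 8.50% to 9.95% per library were fractional. The methods name Gencode vM33 and the data availability text M26, so the annotation used is not certain. Here, barcodes with at least 1500 UMIs (700 in the Hgf libraries) were kept and gated: a marker was present where its rounded UMIs exceeded the 99% Poisson quantile given by its share in barcodes of at most 100 UMIs, a type needed at least 3 markers, and a second class at most 0.5 of the first. Subtypes of endothelium needed 2 markers. No doublet caller was run, and mixed barcodes were left out. UMIs were summed per library and type. Members and gene lists were chosen with earlier results of these data known. Named pathway genes were those past 2-fold with at least 100 UMIs, at most 15, and the highest of each list. A result under this rule is not reported here. Like patterns used log2(CPM + 1) averaged over the control lungs. Intervals were computed with scipy 1.17.1 and their computation was checked on simulated counts. These were drawn from the Poisson model that the intervals assume, so the check does not cover differences between cells or mice. Gene positions come from a later Gencode annotation of GRCm39, promoters from RefSeq GRCm38.p6. Samples were grouped by their titles. The effects of 10 other settings, and of 1 chosen after seeing the data, are given last.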

Additional observations from a re-analysis of the deposited data

Results flagged for a closer look

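Bmp2 in endothelial cells had a log2 ratio of 0.38 (0.06 to 0.71) in the Bdnf pair, from 5.73 to 7.47 CPM, and of -0.54 (-0.98 to -0.10) in the Hgf pair, from 8.36 to 5.77 CPM, so the single libraries of the lung pairs moved in opposite directions. Free RNA held 20.8, 14.7, 17.4 and 11.4 CPM of Bmp2 in these libraries, above all 4 values. Without cells rich in markers of other types the Bdnf ratio was 0.34 (-0.02 to 0.70) and the Hgf ratio -0.49 (-0.95 to -0.03). Bmp4 in gCap cells had -0.47 in the Bdnf pair, from 56.3 to 40.6 CPM, and 0.61 (0.16 to 1.06) in the Hgf pair, from 42.7 to 65.4 CPM. Free RNA held 120.1, 109, 73.2 and 70.1 CPM of Bmp4, again above all 4 values. Without cells rich in markers of other types these ratios were -0.51 (-0.82 to -0.21) and 0.64 (0.18 to 1.10). The part of free RNA in these values was not tested, and neither difference between the pairs was tested, since each pair has 1 library per condition.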

How the results depend on the processing

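No paired analysis was possible because each condition has 1 library. Of 535 alternative values of the 62 named ratios, 487 stayed inside the interval of counting error of the reported value, 47 lay outside it with the same direction, and 1 reversed: Id2 in Hgf myofibroblasts, -0.081 with a stricter marker gate. Among the other ratios, Bmp6 in Bdnf pericytes moved from 1.16 to 2.23 without cells rich in markers of other types and to 0.44 with the gate on thinned barcodes, and that gate moved Bmpr2 in Bdnf lymphatic cells to 0.50 and Acvrl1 in Hgf AT1 cells to 0.14. Counts of members past 1.5-fold in either direction moved from 23 to 10 in the Bdnf pair with at least 200 UMIs per gene, to 4 at 2-fold and to 15 without cells rich in markers of other types, an alternative chosen after seeing the data that was not run for the cortex. In the Hgf pair they moved from 23 to 15 with the gate on thinned barcodes and to 9 at 2-fold, in the Nodal pair from 4 to 7 with the mean over cells and to 1 at 2-fold, and between the control lungs from 28 to 16 with 200 UMIs and 13 at 2-fold. Counts over all genes fell from 16211 to 5383 with 200 UMIs and 4336 at 2-fold in the Bdnf pair, from 23064 to 9698 and 9193 in the Hgf pair, and from 7176 to 1985 and 1625 in the Nodal pair, which these stricter limits do by construction. The highest cell type of a member was the same with the mean over cells in 27 of 30 cases. The Hgf libraries and the rare types set the depth limit, since ratios with fewer than 50 UMIs in both libraries together were not called.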
